A study of Drosophila melanogaster with 8 samples.

Results

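Noncoding RNAs were followed on 1-colour microarrays of whole adult Drosophila melanogaster. The arrays carry 95 probes, of 32162 for the fly, whose target is given by a RefSeq noncoding transcript number, leaving out 1 such number each for the roX1 and roX2 RNAs. They cover 80 of the 25768 fly targets on the array. By RefSeq gene type, 60 of the probes read 45 long noncoding or antisense RNAs and 12 read 12 small structured RNAs. The other 23 probes, for 20 RNAs, have no class here: 22 carry a number with no name in the reference table, and 1 reads NR_002511, which RefSeq types only as a noncoding RNA. Flies of the darkcd4 mutant, backcrossed for 6 generations to w1118, were compared with flies of that strain, which carries a mutation in the eye colour gene white. The labels do not say what kind of mutation darkcd4 is. There were 4 samples of darkcd4 and 4 of w1118, and 5 flies kept with free mating were pooled for each on day 5 of adult life. Dark is the fly version of Apaf-1, a scaffold on which initiator caspases are switched on, and the series title calls the mutant apoptosis-deficient. Neither sex nor separate cultures are given in the labels, so the p-values here rest on a sample-to-sample spread that may be technical. No probe was matched by name to Dark, so the mutation was not checked on these arrays.

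Long noncoding RNAs resemble messenger RNAs in length and are mostly capped and polyadenylated, but encode no known protein. Some act at the chromosome or in nuclear bodies, and others are hosts whose introns release small nucleolar RNAs (snoRNAs). Small structured RNAs work inside ribonucleoproteins: spliceosomal snRNAs remove introns, and snoRNAs guide the cutting or modification of ribosomal RNA. 7SL RNA scaffolds the signal recognition particle, and RNase MRP RNA helps cleave ribosomal precursors. The sequences of the RNAs and of their probes were not used here, so the RNAs are given by name and length.

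Levels are log2 values of the processed spot signal over the array's 75th percentile, so a level of 0 equals that percentile; they compare arrays for 1 probe, not probes with each other. Per array, 70.3% to 78.0% of non-control spots exceeded background by the scanner's flag. The scaling value itself, the 75th percentile, averaged 376.5 ± 107.3 intensity units on darkcd4 arrays and 492.6 ± 42.4 on w1118 arrays (SD, n = 4 each; exact permutation test, two-sided, p = 0.114). All 8 arrays lay on 1 slide; its row 1 held replicates 1 and 2 of both genotypes and its row 2 held replicates 3 and 4, while each column position held 1 genotype, so column and genotype cannot be told apart. In the small structured RNAs 3 arrays of row 1 stood apart: darkcd4 1, darkcd4 2 and w1118 1 were high in every one of them. The 3 arrays were picked by these values, with earlier results of these data known. Their 75th percentiles, 253.9, 366.5 and 456.5, were the lowest within each genotype. The other arrays had 515.7 and 369.8 (darkcd4 3 and 4) and 553.1, 472.3 and 488.5 (w1118 2 to 4). The part of these scaling values was not tested. Many of the genotype differences below are given with and without the 3 arrays, and the part of whatever set these arrays apart was not tested. Without them darkcd4 3 and 4 and w1118 2, 3 and 4 remain. These are the arrays of row 2 and w1118 2, so values without the 3 arrays and within row 2 are not separate checks. A probe was tested when at least 4 of the 8 arrays had it well above background, which held for 74 of the 95 noncoding RNA probes. The 21 that were not tested comprised 16 long RNA probes and 5 of no class, and 12 and 3 of these were above background on no array. Among the untested were the probe for bxd, a transcript of the bithorax complex of homeotic genes, and that for yar, which lies between yellow and achaete.

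No long noncoding or antisense RNA probe passed the test between genotypes, and lncRNA:CR33942 came nearest. None of the 44 tested probes (31 RNAs) passed the test (limma, Benjamini-Hochberg adjustment over all 24649 probes tested, threshold 0.05; smallest adjusted p = 0.0535), and 8 had an unadjusted p below the threshold. Over all probes 1.89% were called, 282 higher and 183 lower in darkcd4, and 4798 had an unadjusted p below it. A count of 0 in 44 is close to that share, so it sets the class apart from other probes in neither direction. The median size of the difference, sign aside, was 0.23 for these 44 and 0.23 over all probes. Of the 44 differences 19 were positive and 25 negative, with a median of -0.02 on the log2 scale, and the median over all probes was also -0.02. The values of the 2 genotypes did not overlap for 7 of the 44 probes, 3 higher and 4 lower in darkcd4, where 11.1% of all probes did not overlap. In whole flies, fewer cells of a type and less RNA per cell cannot be told apart.

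The largest difference of the class was that of lncRNA:CR33942, a 561-base RNA lying between Vps51 and Hs3st-A. Its gene is on chromosome arm 2R, the arm that also carries Dark, and 1.69 Mb from Dark. The part of this closeness in the difference was not tested. lncRNA:CR33942 was read by 1 probe with 1 spot on each array. Its level was 0.55, 0.17, -0.84 and -1.33 on darkcd4 arrays 1 to 4. On w1118 arrays 1 to 4 it was -1.76, -2.09, -2.99 and -2.48. Every darkcd4 array lay above every w1118 array, and within each genotype the row 1 arrays lay above those of row 2. The means were -0.36 ± 0.87 in darkcd4 and -2.33 ± 0.53 in w1118 (SD, n = 4 each), a 3.91-fold difference of 1.97 ± 0.42 on the log2 scale (SE; limma, adjusted p = 0.0535). With the slide row as a block the difference was the same and its adjusted p was 0.0012. Within row 1 it was 2.29 (limma, adjusted p = 0.0132) and within row 2 it was 1.65 (adjusted p = 0.0503). Without the 3 arrays that stood apart it was 1.44, with an adjusted p of 0.0626 in limma, and it was 1.57 when the level of the small structured RNAs entered as a covariate (adjusted p = 0.0046). It passed in 9 of 23 alternative settings, over which the adjusted p ran between 0.0012 and 0.179. Leaving out 1 array gave 1.66 to 2.29, and it passed without darkcd4 3 (adjusted p = 0.0294) and without darkcd4 4 (0.0319).

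Uhg5, which RefSeq places over 11 snoRNA genes as their host, was the next largest among those without overlap. It lies on arm 2R too, 2.4 Mb from Dark, and the part of this closeness was not tested. Uhg5 was also read by 1 probe with 1 spot on each array. Its levels were 1.01, 0.74, 0.07 and 0.42 on darkcd4 arrays, against 0.03, -0.21, 0.04 and 0.01 on w1118 arrays. The lowest darkcd4 value, 0.07, was just above the highest w1118 value, 0.04, so the groups were only narrowly apart. The difference was 0.59 ± 0.19 (SE; limma, adjusted p = 0.158), with 0.96 within row 1 and 0.22 within row 2. It was 0.30 without the 3 arrays and 0.75 without darkcd4 3, where it passed (limma, adjusted p = 0.0254).

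A smaller and tighter difference was seen for lncRNA:CR33987, a 1047-base RNA that overlaps tio, a zinc finger gene. Its levels were -0.37, -0.27, -0.02 and -0.07 in darkcd4 and 0.10, 0.24, 0.39 and 0.18 in w1118. All darkcd4 values were below 0 and all w1118 values above it. The difference was -0.41 ± 0.12 (SE, limma adjusted p = 0.125), with -0.49 within row 1 and -0.33 within row 2. Without the 3 arrays that stood apart it was -0.31 (limma, adjusted p = 0.238). It passed in 3 of 23 alternatives, first with the row as a block (limma, adjusted p = 0.0427). The others were the level of the small structured RNAs as a covariate (-0.33, 0.0378) and leaving out darkcd4 3 (-0.46, 0.0481). In these settings calls over all probes rose too, from 465 to 1759, 1912 and 2607.

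The 4 other RNAs without overlap did not pass the test in the 23 alternatives either. lncRNA:CR40465, a 634-base RNA, was at -0.65, -0.48, -0.40 and -0.39 in darkcd4 and at -0.18, -0.29, 0.07 and -0.11 in w1118, a difference of -0.35 ± 0.12. lncRNA:CR33963, which overlaps the mRNA decay gene Tis11, was at -2.31, -2.20, -2.29 and -2.03 in darkcd4 and at -2.96, -2.43, -2.34 and -2.46 in w1118, a difference of 0.34 ± 0.16 that was 0.20 without w1118 1, its lowest array. lncRNA:Yu was at -1.42, -1.24, -1.34 and -1.30 in darkcd4, against -0.85, -1.19, -0.93 and -1.14 in w1118, a difference of -0.30 ± 0.12. lncRNA:CR32690 was at 1.40, 1.33, 1.52 and 1.22 in darkcd4, against 1.68, 1.54, 1.74 and 1.59 in w1118, a difference of -0.27 ± 0.11. Their adjusted p-values (limma) lay between 0.163 and 0.279. For these 4 and for lncRNA:CR33987 the spread within a genotype was small, with no SD above 0.28. No gene overlapping or next to the 7 RNAs without overlap had a named probe that was tested.

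2 further long RNAs were picked out after their values were seen. lncRNA:CR42767, 928 bases on the X chromosome, was at 2.59, 2.41, 3.04 and 2.75 in darkcd4 and at 3.04, 3.1, 3.42 and 3.21 in w1118. The genotypes met at 3.04, the value of darkcd4 3 and of w1118 1. The difference was -0.49 ± 0.16 (SE, limma adjusted p = 0.157) and -0.34 without the 3 arrays that stood apart (adjusted p = 0.299). It passed with the row as a block (adjusted p = 0.0396) and without darkcd4 3 (-0.61, adjusted p = 0.0345). The antisense RNA asRNA:CR42738, which overlaps CG14610, was at 0.07, 0.34, 0.59 and 0.63 in darkcd4 and at 0.51, 0.88, 1.21 and 0.94 in w1118. Its 3 lowest arrays were darkcd4 1, darkcd4 2 and w1118 1. Its difference was -0.48 ± 0.18 (SE, limma adjusted p = 0.20) and -0.40 without those 3 arrays (adjusted p = 0.207).

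**Figure D1:**
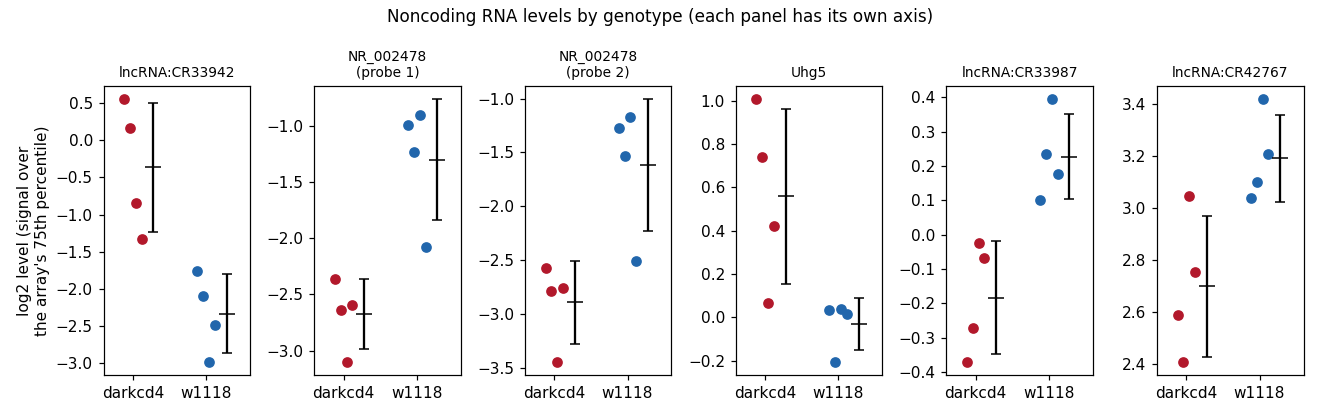
Log2 level over the array's 75th percentile for 5 noncoding RNAs (6 probes), with the 4 darkcd4 arrays left and the 4 w1118 arrays right in each panel; points are arrays, and the bar beside them is the mean ± SD. The genotypes do not overlap in the first 5 panels, and w1118 4, at -2.07 and -2.51, is the w1118 array nearest to darkcd4 in the panels of NR_002478.

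Of the 18 tested probes of no class, 1 passed the test, 4 had values without overlap and 5 had an unadjusted p below the threshold. Over all probes the shares were 1.89% called and 11.1% without overlap, and 1 called in 18 is too few to set these probes apart. The probe called reads NR_002478, an RNA with no name in the table used. Its level was -2.36, -2.64, -3.10 and -2.60 in darkcd4, against -0.99, -1.23, -0.90 and -2.07 in w1118. Of the w1118 arrays only replicate 4 came near the darkcd4 values. NR_002478 was 2.60-fold lower in darkcd4, a log2 difference of -1.38 ± 0.27 (SE; limma, adjusted p = 0.0386). A second probe of the same RNA had -2.58, -2.79, -3.45 and -2.76 in darkcd4 and -1.27, -1.53, -1.17 and -2.51 in w1118. That probe differed by -1.28 ± 0.31, just short of the threshold (limma, adjusted p = 0.0770). It passed with the row as a block (-1.28, adjusted p = 0.0317), in row 1 alone (-1.28, 0.0428), with the level of the small structured RNAs as a covariate (-1.41, 0.0250) and without w1118 4 (-1.57, 0.0197). The first was called in 13 of 23 alternatives. Without w1118 4 its difference was -1.64 (limma, adjusted p = 0.0083), while without the 3 arrays it was -1.45 (0.112), in row 1 alone -1.39 (0.0370) and in row 2 alone -1.36 (0.242). Another background correction, normexp, gave -0.88 (adjusted p = 0.0647). The call was lost on leaving out any of w1118 1, w1118 2, w1118 3, darkcd4 1, darkcd4 2 or darkcd4 4, with adjusted p-values between 0.0649 and 0.143, while the difference there lay between -1.48 and -1.25. NR_037750, also unnamed and picked out after its values were seen, was at -2.96, -3.33, -4.01 and -3.92 in darkcd4 and at -4.11, -4.37, -4.70 and -4.45 in w1118. Its 4 darkcd4 values lay above all w1118 values, and the difference of 0.85 ± 0.26 (SE; limma, adjusted p = 0.133) passed with the row as a block (adjusted p = 0.0263).

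**Figure D2:**
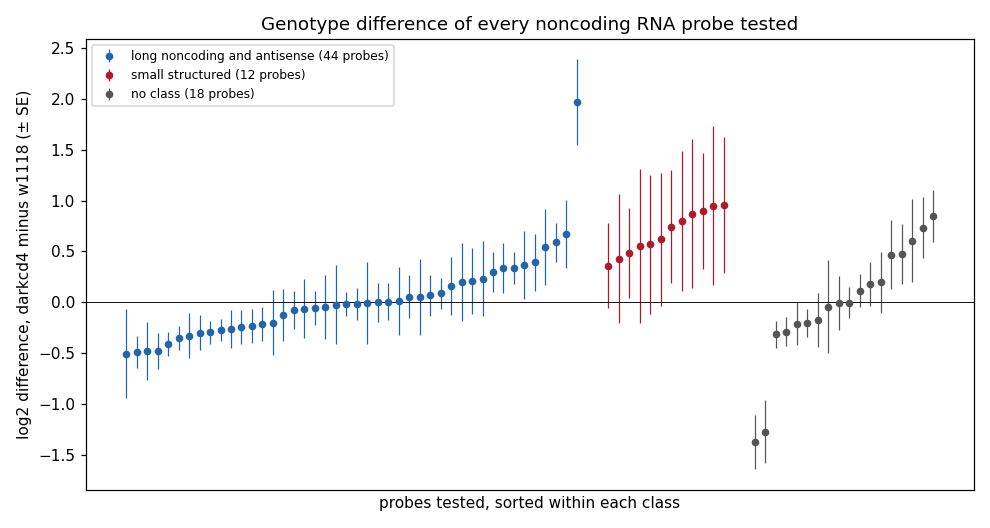
Log2 difference, darkcd4 minus w1118, for all 74 noncoding RNA probes tested, sorted within 3 classes; bars are the standard error of the limma fit. All 12 small structured RNA probes lie above 0 with wide bars, the 44 long RNA probes lie around 0 apart from lncRNA:CR33942 at 1.97, and the 2 probes of NR_002478 are lowest at -1.38 and -1.28.

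In the small structured RNAs, 12 of 12 probes had a higher mean in darkcd4, yet none passed the test. The log2 differences ran between 0.36 and 0.96 with a median of 0.68, and standard errors between 0.42 and 0.78 were of similar size. Adjusted p-values (limma) were 0.399 to 0.724, and none had an unadjusted p below the threshold. Mean level over the 12 RNAs was 1.92, 1.44, -0.66 and -0.27 on darkcd4 arrays 1 to 4, against 1.19, -0.60, -0.68 and -0.23 on w1118 arrays 1 to 4. The high arrays were 2 of darkcd4 and 1 of w1118, and the other 5 arrays, of both genotypes, lay between -0.68 and -0.23. The difference of this mean was 0.69 over all arrays, 1.39 within row 1 and -0.01 within row 2. Without the 3 high arrays it was 0.03, and then 6 of the 12 differences were positive. These same RNAs set the 3 arrays apart, so a small difference without them was built in and is no test.

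The 12 RNAs shared this order closely. Each had darkcd4 1, darkcd4 2 and w1118 1 as its 3 highest arrays, which is what set these arrays apart and is a description, not a test; over all probes tested the share with these 3 arrays highest was 14.5%. The lowest of the 3 lay above the highest of the other 5 by 0.78 to 1.86 on the log2 scale. The range over the 8 arrays had a median of 2.75, against 1.02 in long RNAs and 0.88 over all probes. The 3 arrays were the highest before the arrays were scaled too, when the mean log2 processed signal of the 12 was 9.91, 9.96, 8.35 and 8.26 on darkcd4 arrays and 10.02, 8.52, 8.21 and 8.70 on w1118 arrays.

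U1 snRNA recognises the 5′ splice site. snRNA:U1:21D was at 4.50, 4.02, 1.90 and 2.31 in darkcd4 and at 4.01, 2.06, 1.86 and 2.32 in w1118. NR_001982, from another copy of the U1 gene, was at 1.50, 0.82, -1.68 and -0.94 in darkcd4 and at 1.03, -1.29, -1.34 and -0.90 in w1118. U1 copies are close in sequence, so the probes may read more than 1 copy. For snRNA:U2:34ABb, a copy of the snRNA that pairs with the branch point, values were 5.28, 4.79, 1.80 and 2.65 in darkcd4 and 4.02, 2.18, 1.96 and 2.55 in w1118. It had the widest range of the class, 3.49, and a difference of 0.95 ± 0.78 (SE; limma, adjusted p = 0.509). U11 and U12 do the work of U1 and U2 for the rare minor introns. U11 was at -2.68, -3.56, -5.13 and -4.62 in darkcd4 and at -3.84, -5.63, -5.49 and -4.63 in w1118. U12 was at -0.98, -1.64, -3.55 and -3.49 in darkcd4 and at -1.59, -3.44, -3.24 and -3.10 in w1118. Major and minor spliceosomal snRNAs were both among the RNAs by which the 3 arrays were set apart. Row 2 differences were 0.19 for U11 and -0.35 for U12.

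U3 is the snoRNA that directs early cleavage of the ribosomal precursor. snoRNA:U3:54Aa was at 2.80, 2.16, -0.03 and 0.41 in darkcd4 and at 1.67, -0.13, -0.43 and 0.38 in w1118, the largest difference of the class at 0.96 ± 0.67 (SE; limma, adjusted p = 0.435). snoRNA:U3:9B was at 4.25, 3.62, 0.98 and 1.64 in darkcd4 and at 3.0, 1.33, 0.91 and 1.76 in w1118. Both U3 probes had the same 3 arrays highest, and copies of U3 are again close in sequence. snoRNA:U3:54Aa lies on arm 2R, 0.123 Mb from Dark, and the part of this closeness was not tested. Its difference was 0.22 within row 2 and 0.25 without the 3 arrays, and that of snoRNA:U3:9B was -0.03 in both. snoRNA:Psi28S-2566 and snoRNA:Psi28S-291 are guides for pseudouridines of 28S ribosomal RNA. snoRNA:Psi28S-2566 was at 0.41, -0.13, -2.21 and -2.14 in darkcd4 and at -0.28, -2.32, -2.45 and -2.21 in w1118. snoRNA:Psi28S-291 was at -0.11, -0.05, -2.66 and -2.23 in darkcd4 and at -0.43, -2.42, -2.35 and -2.13 in w1118. The Cajal body RNA scaRNA:MeU5-C46, a guide for methylation of U5 snRNA, had the smallest difference, 0.36 ± 0.42 (SE; limma, adjusted p = 0.646). Its levels were -0.56, -0.60, -2.17 and -1.76 in darkcd4 and -0.75, -1.97, -1.94 and -1.87 in w1118.

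RNase MRP RNA was at 3.41, 3.11, 1.34 and 1.34 in darkcd4 and at 2.70, 1.06, 1.12 and 1.36 in w1118. 7SL RNA was at 5.20, 4.78, 3.48 and 3.54 in darkcd4 and at 4.68, 3.42, 3.30 and 3.67 in w1118. These RNAs belong to other particles than the spliceosome or the snoRNPs, and both were among the 12 by which the 3 arrays were set apart. The 12 RNAs are 164 to 382 bases long and lie on 5 chromosome arms. The labelling kit named in the labels primes on poly(A), a tail that mature snRNAs and snoRNAs lack, and which form the probes read was not tested.

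**Figure D3:**
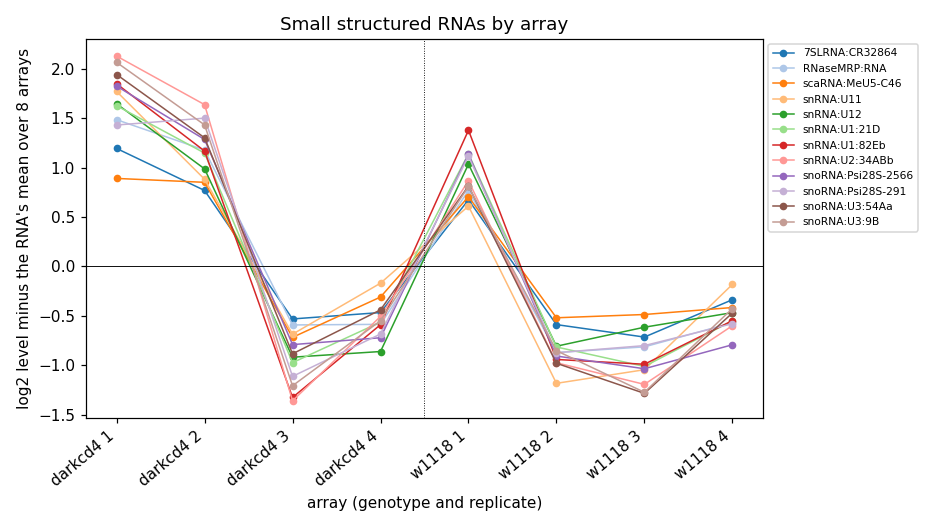
Log2 level of each of the 12 small structured RNAs on each array, minus its mean over the 8 arrays, with darkcd4 arrays left of the dotted line and w1118 arrays right of it; each line is 1 RNA. All 12 lines are above 0 on darkcd4 1, darkcd4 2 and w1118 1 and below 0 on the other 5 arrays, and 3 of the 4 arrays of slide row 1 are the high ones.

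Among long noncoding RNAs the same 3 arrays stood at both ends. They were the 3 highest in 10 of the 44 probes and the 3 lowest in 19, where over all probes they were highest in 14.5% and lowest in 19.9%. Counted by RNA, all tested probes had them highest in 9 of 31 RNAs and lowest in 9. The remaining 15 probes had neither order.

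2 snoRNA host genes were among those high on the 3 arrays. Uhg3, which overlaps 3 snoRNA genes, was at 0.17, -0.01, -1.57 and -1.05 in darkcd4 and at -0.45, -1.11, -0.77 and -1.05 in w1118. A second Uhg3 probe gave 0.20, 0.01, -1.31 and -0.98 in darkcd4 and -0.41, -0.90, -0.66 and -0.93 in w1118, the same order of the 3 arrays. Uhg2, over 4 snoRNA genes, was at -1.13, -1.24, -2.71 and -2.28 in darkcd4 and at -1.79, -2.60, -2.74 and -2.40 in w1118. None of these passed the test between genotypes: Uhg2 had 0.54 ± 0.37 and the Uhg3 probes 0.23 ± 0.37 and 0.20 ± 0.33 (SE; limma, adjusted p = 0.429, 0.742 and 0.742). Without the 3 arrays the difference of Uhg2 was 0.08 and those of Uhg3 were -0.33 and -0.31. Within row 2 they were 0.07, -0.40 and -0.35, so Uhg3 turned in sign. Uhg5 did not share the order, since w1118 1 lay with the other w1118 arrays there. The antisense RNA asRNA:CR31144, which overlaps the ribosomal protein gene RpL3 and 2 snoRNA genes and lies next to snoRNA:Psi28S-291, was picked out after its values were seen. It was at 1.21, 1.04, 0.80 and 0.64 in darkcd4 and at 1.23, 0.73, 0.95 and 0.84 in w1118, so the 3 arrays were highest here too, by 0.09.

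lncRNA:sphinx, a young gene linked to male courtship, was at 5.65, 5.46, 4.64 and 4.67 in darkcd4 and at 5.22, 4.34, 4.71 and 4.58 in w1118. Its genotype difference was 0.39 ± 0.28 over all arrays, 0.77 within row 1 and 0.01 within row 2 (SE; limma, adjusted p = 0.451 over all arrays), and 0.11 without the 3 arrays. It thus followed the small structured RNAs in which arrays were high. lncRNA:CR33948, lncRNA:CR42859 and lncRNA:CR30055 had the 3 arrays highest as well.

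Other long RNAs were low on the 3 arrays. lncRNA:Hsromega, the heat shock RNA that organises the omega speckles of the nucleus, was read by 4 probes. Their mean level was 2.51, 2.71, 3.28 and 3.33 on darkcd4 arrays and 2.67, 3.16, 3.06 and 3.21 on w1118 arrays. 3 of the 4 probes had the 3 arrays lowest, and the genotype differences of the probes were between -0.13 and 0.01, against 0.13 to 0.24 without the 3 arrays. lncRNA:CR42862, 6859 bases long and overlapping CG33229, was read by 5 probes. Their mean was -1.15, -0.79, -0.21 and 0.24 on darkcd4 arrays and -1.23, -0.06, -0.22 and -0.19 on w1118 arrays. All 5 probes had the 3 arrays lowest, at ranges of 1.26 to 1.79, while their genotype differences were between -0.20 and 0.01, against 0.09 to 0.26 without the 3 arrays. lncRNA:CR42839, between the GATA factor genes srp and GATAe, was at -6.96, -6.11, -4.89 and -5.17 in darkcd4 and at -5.76, -4.98, -5.17 and -5.18 in w1118. It was well above background on 2 of the 4 darkcd4 arrays and on all 4 w1118 arrays, so its lowest levels and its range of 2.07 are uncertain. Its difference was -0.51 ± 0.44 (SE; limma, adjusted p = 0.531), but 0.30 with normexp background correction and 0.08 without the 3 arrays. lncRNA:CR32661 and lncRNA:CR42836, of 873 and 774 bases, were picked out after their values were seen and had the 3 arrays lowest too. Their differences were -0.30 and -0.25 for 2 lncRNA:CR32661 probes and -0.48 for lncRNA:CR42836 (limma, adjusted p = 0.360, 0.424 and 0.374). Without the 3 arrays these were -0.16, -0.11 and -0.42.

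Neighbouring genes could show opposite orders. lncRNA:CR32657 and lncRNA:CR32658 lie next to each other and both overlap Ten-a, a gene of synaptic adhesion, and were picked out after their values were seen. lncRNA:CR32657 was at 4.57, 4.33, 3.33 and 3.14 in darkcd4 and at 4.52, 3.27, 3.76 and 3.58 in w1118, highest on the 3 arrays. A lncRNA:CR32658 probe was at 3.50, 3.65, 4.13 and 3.95 in darkcd4 and at 3.87, 3.95, 4.27 and 4.06 in w1118, lowest on them, and its 2 other probes gave the same 3 arrays lowest. lncRNA:CR32657 is 485 bases long and lncRNA:CR32658 is 1009. NR_002511, at 157 bases the shortest of the tested RNAs with a length in the table, was lowest on the 3 arrays and was also picked out after its values were seen. It was at 1.26, 1.43, 2.10 and 2.44 in darkcd4, against 1.57, 2.15, 2.11 and 2.11 in w1118, a difference of -0.18 ± 0.27 (SE; limma, adjusted p = 0.725) that was 0.14 without the 3 arrays.

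**Figure D4:**
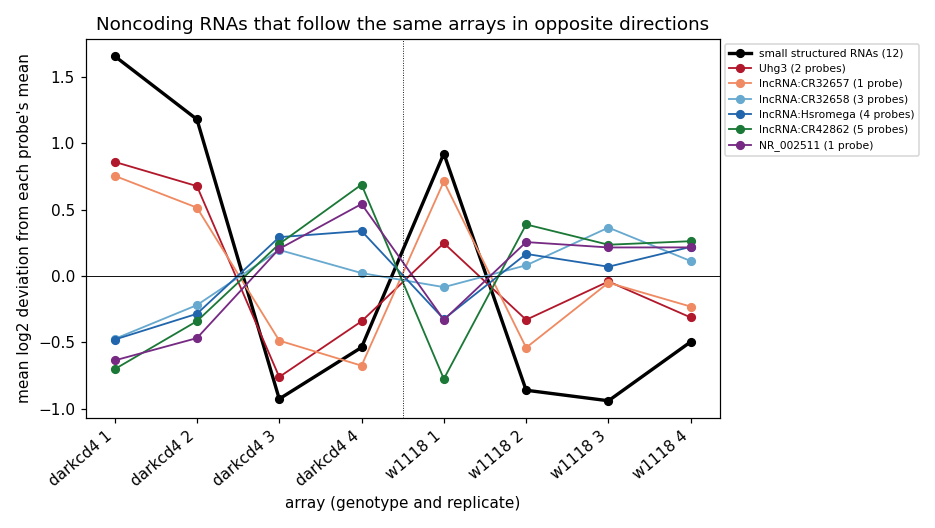
Mean log2 deviation from each probe's mean over the 8 arrays, for the 12 small structured RNAs together and for 6 single RNAs, with darkcd4 arrays left of the dotted line and w1118 arrays right of it. The small structured RNAs, Uhg3 and lncRNA:CR32657 peak on darkcd4 1, darkcd4 2 and w1118 1, where lncRNA:CR32658, lncRNA:Hsromega, lncRNA:CR42862 and NR_002511 are at their lowest.

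3 of the 6 long RNAs with the widest ranges, lncRNA:CR33942 above and the 2 that follow, had neither order. lncRNA:CR32218, which overlaps the chromatin remodeller gene Mi-2, was at 3.77, 2.96, 3.32 and 3.31 in darkcd4 and at 3.06, 1.92, 3.56 and 3.35 in w1118, and w1118 2 alone was low. lncRNA:CR31044, which covers the microRNA genes mir-279 and mir-996, had 2 probes with differences of 0.16 ± 0.29 and 0.67 ± 0.33 (SE; limma, adjusted p = 0.775 and 0.296), against -0.05 and 0.12 without the 3 arrays. On the first it was highest on darkcd4 1, at -3.97, and on the second on darkcd4 2, at -3.47, so its probes did not share an order. Of 7 long RNAs with several tested probes, 4 had differences of 1 sign.

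The slide row was tested with genotype in the model. Row 1 minus row 2 passed for none of the 24649 probes (0%; limma, smallest adjusted p = 0.0998), although 7720 had an unadjusted p below the threshold. The small structured RNAs set apart 3 arrays of row 1, so positive row differences in these RNAs were built in and are no test. The differences were all positive, 0.96 to 1.83 with a median of 1.54, and 11 of 12 had an unadjusted p below the threshold. For the long RNAs 29 of 44 were negative and 15 positive, with a median of -0.28, against -0.04 over all probes, and 26 had such an unadjusted p. w1118 2, of row 1, had a mean of -0.60 in the small structured RNAs, between those of the row 2 arrays. Added E1A control RNA, read by 10 values of the authors' deposited table, was at 0.94, 0.46, -0.03 and 0.23 on darkcd4 arrays and at -0.34, -0.09, -0.14 and -0.12 on w1118 arrays. It was high on darkcd4 1 and darkcd4 2 and lowest on w1118 1, and its part in the results was not tested.

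2 of the probes counted among the long RNAs read roX1 and roX2, the RNAs that coat the male X chromosome, under other transcript numbers than those left out. That of roX1 differed by -0.06 ± 0.17 and that of roX2 by 0.33 ± 0.25 (SE; limma, adjusted p = 0.863 and 0.459), against 0.13 and -0.02 without the 3 arrays; roX2 was highest and roX1 lowest on the 3 arrays. Genes of the protein partners of these RNAs were looked for in 6 lists, of snRNP, snoRNP, SRP, RNase MRP and P proteins, snRNA synthesis and nuclear RNA decay, and 0 had a tested probe with a name. Of 8 lists of organ markers, 2 had a named and tested gene, so the labelled whole-body tissue could be checked in little. Dup99B, of the male ejaculatory duct, was at 4.20, 3.41, 3.02 and 2.89 in darkcd4 and at 3.78, 3.18, 3.37 and 2.86 in w1118, a difference of 0.08 ± 0.30 (SE; limma, adjusted p = 0.900). Its 3 highest arrays were those high in small structured RNAs, and its part in the order of the arrays was not tested. In the gut list, the lysozyme gene LysB was at 3.22, 3.46, 4.29 and 4.17 in darkcd4 and at 6.34, 6.12, 6.48 and 6.07 in w1118, a difference of -2.47 ± 0.25 (adjusted p = 0.0016), while Jon65Aiii had -0.52 ± 0.18 (adjusted p = 0.178). The part of gut content in the noncoding RNA results was not tested.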

How the data were processed

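Genotypes of the 8 whole-body samples were read from the labels, 4 darkcd4 and 4 w1118. Cy3-labelled RNA was made from 50 ng of each, per the labels' protocols. Spot values are intensity values that the authors obtained, per the file headers, with Agilent Feature Extraction 10.7.3.1, background-subtracted and detrended but not scaled between arrays, and other values in the deposited files are 0 or 1 flags for signal over background, saturation and outliers. Log2 values fill the authors' deposited table of the series; over 24649 probes it followed the log2 signal minus the 75th percentile, centred on each probe's median, with a slope of 0.999. What software made it is not given in the sources used here.

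Control spots and 80 probes for added RNAs were left out, outlier spots were dropped (except in 2 probe values where every spot was one), no spot was saturated, and spots of 1 probe were averaged. Probes well above background on at least 4 arrays were fitted with limma 3.58.1 (lmFit, then eBayes with trended variance; R 4.3.3), with Benjamini-Hochberg adjustment over all probes at 0.05. Python 3.11.15, with matplotlib 3.10.9, served for tables and figures. The procedure was tested on simulated data.

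Names, lengths, neighbours and distances to Dark came from a RefSeq table of the Release 6 assembly. The array grid names dm3, so no coordinates are given. Of 95 noncoding RNA probes 73 matched a name, and of all fly probes 238 did, as 20979 carry FlyBase transcript numbers. The RNAs and lists were chosen with earlier results of these data known. Named were called RNAs, long RNAs whose genotypes did not overlap, the 6 with the widest range, the 3 brightest, all small structured RNAs, well studied RNAs, and called list members or those with the smallest p. Probes without a RefSeq class were kept apart from the long RNAs, which departs from the plan. So does normexp (offset 50), which used median in place of mean spot signals. Other alternatives were quantile and median scaling, the deposited table, filters, 1 probe per target, slide row, replicate block, array weights, leaving out arrays, the small structured RNA level as a covariate and no variance trend.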

Additional observations from a re-analysis of the deposited data

Results flagged for a closer look

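Within each genotype, the highest or lowest of the 4 arrays was set against Dixon's critical value at 95% for 38 probes, 76 groups in all. Chance gives about 1 in 20 such groups, but the probes were chosen partly for a wide range, include the RNAs by which the 3 arrays were set apart and hold several probes of 1 RNA, so the number found cannot be read against that rate. In 8 groups 1 array stood apart, and 7 of these were w1118 1, among the 3 arrays high in small structured RNAs.

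lncRNA:CR42862 was low on w1118 1 with 4 of its 5 probes: -2.78 where the other w1118 arrays had -1.35 to -1.24, 4.21 against 5.01 to 5.10, -1.38 against -0.43 to -0.32 and -3.74 against -2.60 to -2.39. Among small structured RNAs w1118 1 was high: scaRNA:MeU5-C46 was at -0.75 there and at -1.97 to -1.87 on the other w1118 arrays, snoRNA:Psi28S-2566 at -0.28 against -2.45 to -2.21, and snoRNA:Psi28S-291 at -0.43 against -2.42 to -2.13. Uhg5 was low on w1118 2, at -0.21, where the other w1118 arrays had 0.01 to 0.04.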

How the results depend on the processing

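Of all probes, 465 were called, and the count was 1759 with the slide row as a block, 205 in row 2 alone, 1238 with array weights and 1912 with the small structured RNA level as a covariate. Without 1 array it was 160 (without w1118 3) to 2607 (without darkcd4 3). It was 193 without w1118 2, 222 without w1118 4, 304 without w1118 1, 189 without darkcd4 2 and 238 without darkcd4 1. The cause was not tested. For long RNAs the count of 0 became 1 with normexp, quantile scaling, row 1 alone or array weights, 2 with the covariate and 3 with the row block. It also became 1 when probes of no class were counted too, an alternative added after seeing the data. Without 1 array it was 0 to 4, with 4 (lncRNA:CR33942, Uhg5, lncRNA:CR33987 and lncRNA:CR42767) without darkcd4 3 and 1 without darkcd4 4. Of all 24649 probes, 1759 were called with the row block, 1912 with the covariate and 2607 without darkcd4 3. The counts among the 44 long RNA probes are near or below those shares, so they do not set the class apart there. The median difference of the long RNAs was -0.21 in row 1 alone, and -0.16 (without darkcd4 4) to 0.028 (without w1118 3) without 1 array. No small structured RNA was called in 22 alternatives, and their mean difference was 0.25 to 1.11 without 1 array. Normexp moved the median of all probes to 0.14. Among 38 named probes, 92 of 853 alternative values changed sign, in 20 probes, 6 of them small structured RNAs; none of these had passed the test.

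Deviations of same-numbered arrays from their genotype means correlated at 0.67, -0.10, 0.28 and 0.30 for numbers 1 to 4 (across probes). Number 2 did not exceed 0.10, so the numbers were not treated as pairs, although same-numbered arrays shared a slide row. With a replicate block 1154 of all probes and 1 long RNA (lncRNA:CR33942, limma, adjusted p = 0.0044) were called. With 4 arrays a genotype and 1 slide, differences near the standard errors given could not be told from 0, and probes near background have the least certain levels.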
